A study of Mus musculus with 10 samples.

Results

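The genes of voltage-gated sodium and calcium channels and of all potassium channel families were described in tuft cells, sparse chemosensory cells of epithelia that bear a bundle of apical microvilli. Members were all protein-coding genes with a Kcn symbol of a lettered family and number, a sodium channel alpha-subunit symbol (Scn) or a calcium channel alpha-subunit symbol (Cacna1 or Cacna2d). These were 117 of the 43432 gene identifiers counted, which hold 21551 protein-coding genes. The study compared 3 sorted populations from naive male C57BL6 mice aged 12 weeks, which all carried 2 copies of Flare25, an Il25 allele with a fluorescent reporter for this cytokine gene. Thymic tuft cells (n = 4 libraries, 1350 to 1900 cells each) and small intestinal (SI) tuft cells (n = 3, 35000 to 36000 cells) were reporter-positive, EPCAM-positive and CD45-negative. SI epithelium (n = 3, 52000 to 57000 cells) passed the same gate but was reporter-negative, so it is a mixture of the other epithelial cell types. Each library came from 1 mouse. DTT and EDTA were used to release the intestinal cells, and Liberase and DNase followed by a Percoll gradient the thymic cells, so effects of organ, dissociation and cell number cannot be told apart.

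Potassium channels set the resting membrane potential and end depolarisations, voltage-gated sodium channels carry the upstroke of action potentials, and voltage-gated calcium channels couple depolarisation to calcium entry and secretion. In intestinal epithelium, basolateral potassium channels maintain the driving force for chloride secretion and sodium-coupled uptake. Tuft cells sense luminal compounds through a taste-like cascade that ends in Trpm5, a calcium-activated cation channel that depolarises the cell.

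Levels are read counts scaled to library size and TMM factors (CPM, counts per 1000000 scaled counts of the library), and changes were called by edgeR's quasi-likelihood test at an adjusted p below 0.05 over the 19281 genes tested. Libraries held 38659882 to 73574745 counts. Before TMM scaling, 3 counts were 0.0408 to 0.0776 CPM. In their tuft cell markers the populations matched their labels. All 16 were higher in thymic tuft (100%, against 28.6% of all genes tested) and in SI tuft cells (100%, against 10.9%) than in SI epithelium. In thymic against SI tuft cells, 12 of these markers were lower and 1 was higher (75% and 6.25%, against 23.1% and 28.5%). Summed levels of the tuft cell markers were 7780 to 9160 CPM in thymic tuft, 26500 to 36100 CPM in SI tuft and 250 to 464 CPM in SI epithelium libraries. Markers of other cell types are given below, and summed enterocyte markers were highest in SI tuft libraries. Counts of some libraries ran in proportion to those of another population. Over genes high in thymus and chosen for near-absence from SI tuft cells, each SI epithelium library was paired with the thymic library for which the gene-by-gene ratio varied least. SI epithelium libraries 1, 2 and 3 held a median of 0.556%, 0.554% and 0.561% of the counts of thymic libraries 3, 2 and 1, with interquartile ranges of the log2 ratio of 0.82, 0.708 and 0.824. Their medians against the other thymic libraries were of like size (0.41% to 0.661%), so the percentage does not single out the pairs. The ranges against those libraries were wider (1.06 to 1.45), which the choice of the pairs by least spread fixed in advance. Over 11 genes chosen as high in SI epithelium, low in SI tuft cells and near 0 in thymic library 4, thymic libraries 3, 2 and 1 held 0.918%, 0.959% and 0.86% of the counts of the same SI epithelium libraries. The interquartile ranges there were 0.142, 0.254 and 0.163, against 0.256 to 0.742 for the other pairs. The choice of genes leaves no such estimate for SI tuft libraries, nor for thymic library 4 in the second set. Values with these shares subtracted are given where they change a call of a channel gene whose levels are given. In sorted bulk samples, fewer cells of a type and less RNA per cell cannot be told apart.

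Promoter sequences are shown for 4 members that carry the main patterns described below, 3 higher in both tuft populations than in SI epithelium and 1 high in thymic tuft cells. They are RefSeq sequences of GRCm38.p6, each running from 250 bases before to 50 bases after the transcription start, printed 5′ to 3′ on the gene's strand, with motif matches in capitals. The motifs searched on both strands were the octamer ATTTGCAT, recognised by POU factors such as the tuft cell regulator Pou2f3, the TATA box as TATAAA, and the GC box as GGGCGG. No motif overlaps another in these windows. Cacna2d2, at chr9:107399630-107399929 on the plus strand, holds 1 GC box. Kcnd3, at chr3:105451640-105451939 on the plus strand, holds no match. Kcnab2, at chr4:152477500-152477799 on the minus strand and 1 of 3 starts listed, holds a GC box, an octamer and a second GC box. This start was chosen because it holds the octamer, which the other Kcnab2 starts listed lack. Kcnj15, at chr16:95257308-95257607 on the plus strand, holds 1 TATA box on the opposite strand.
Cacna2d2: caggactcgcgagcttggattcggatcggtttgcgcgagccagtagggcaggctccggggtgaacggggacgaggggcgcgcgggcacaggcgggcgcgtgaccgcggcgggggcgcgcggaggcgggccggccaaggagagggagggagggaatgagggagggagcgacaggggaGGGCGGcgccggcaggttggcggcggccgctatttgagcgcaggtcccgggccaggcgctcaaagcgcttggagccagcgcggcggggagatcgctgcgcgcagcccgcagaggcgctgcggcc
Kcnd3: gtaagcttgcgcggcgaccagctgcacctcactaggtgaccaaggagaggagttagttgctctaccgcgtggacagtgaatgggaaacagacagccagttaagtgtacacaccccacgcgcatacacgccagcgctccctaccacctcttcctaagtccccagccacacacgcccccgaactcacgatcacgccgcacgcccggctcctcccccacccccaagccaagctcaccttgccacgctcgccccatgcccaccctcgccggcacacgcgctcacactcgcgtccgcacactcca
Kcnab2: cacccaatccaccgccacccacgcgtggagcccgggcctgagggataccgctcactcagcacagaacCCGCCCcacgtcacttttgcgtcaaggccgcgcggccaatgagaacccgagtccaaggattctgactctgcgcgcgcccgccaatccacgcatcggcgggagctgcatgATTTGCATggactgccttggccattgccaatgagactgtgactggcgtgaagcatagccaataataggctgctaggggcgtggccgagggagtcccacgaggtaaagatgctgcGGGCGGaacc
Kcnj15: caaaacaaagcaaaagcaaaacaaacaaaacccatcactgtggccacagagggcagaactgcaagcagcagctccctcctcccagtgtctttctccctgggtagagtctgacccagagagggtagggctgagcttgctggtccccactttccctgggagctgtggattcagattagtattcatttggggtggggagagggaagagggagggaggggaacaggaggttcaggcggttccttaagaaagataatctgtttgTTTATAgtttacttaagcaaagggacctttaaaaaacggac
RefSeq promoters were found for 86 of the 117 members, 116 promoters in all. The octamer was in 1 of these 116 (0.862%), against 1.74% of all 32851 promoters of the same length. The TATA box was in 7 (6.03%), against 13.6% of all promoters, and the GC box in 54 (46.6%), against 35.7%. Kcnab2 was the only member with the octamer in these windows, and a match is a description of the letters only.

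Channel transcripts were present in all populations, with different leaders in each. Summed over the 117 members, levels were 1678 to 1877 CPM in thymic tuft, 860 to 1080 CPM in SI tuft and 796 to 856 CPM in SI epithelium libraries. Of the members, 74 averaged at least 1 CPM in thymic tuft cells, 33 in SI tuft cells and 40 in SI epithelium, and 9, 34 and 20 had no count in any library of those populations in the same order. Genes of any kind with a count also differed, at 20453 to 23179, 18889 to 19396 and 21552 to 21911 per library in that order. Per kilobase of exon, which allows levels of different genes to be set side by side, the inward rectifier gene Kcnj15 led in thymic tuft cells at 50.8 CPM per kb (45 to 65.3 over libraries). The calcium channel subunit gene Cacna2d2 followed at 31.3 (22.9 to 40.3) and the potassium channel interacting protein gene Kcnip3 at 21.5 (14.1 to 28.6), and these ranges of Cacna2d2 and Kcnip3 overlapped. In SI tuft cells, the tandem-pore channel gene Kcnk1 at 49.6 CPM per kb (46.3 to 52.3) and Cacna2d2 at 49.0 (39.4 to 55.8) were level within their spread, ahead of Kcnq1 at 17.5 (16.9 to 18.0). In SI epithelium, Kcnk1 at 56.7 (51.8 to 61.2) and the potassium channel subunit gene Kcne3 at 40.0 (37.3 to 44.4) led, and Kcnq1 followed at 17.0 (13.7 to 22.2).

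**Figure D1:**
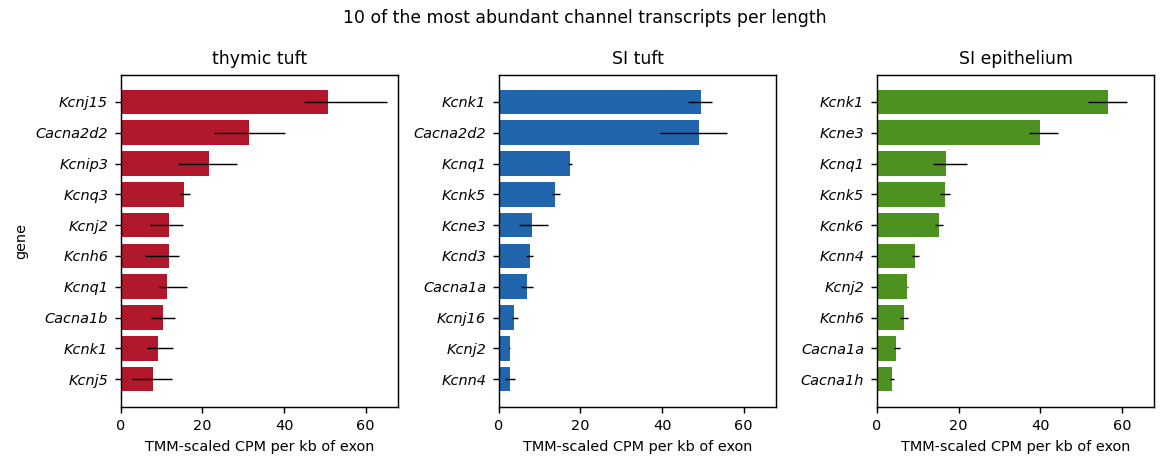
Mean level per kilobase of exon (TMM-scaled CPM per kb, horizontal axis) of 10 of the highest channel genes in thymic tuft (n = 4), SI tuft (n = 3) and SI epithelium (n = 3) libraries, with lines from the lowest to the highest library. Kcnj15 leads in thymic tuft cells at 50.8, Kcnk1 and Cacna2d2 share the lead in SI tuft cells, and Kcnk1 leads in SI epithelium at 56.7.

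Of the 117 members, 85 had enough counts to be tested and 32 did not. A gene with counts in only 1 population passed this filter through that population alone, so the counts of calls describe the tested genes and are not evidence about the families. Thymic tuft cells had 45 tested members higher (52.9%, against 28.5% of all genes tested) and 9 lower (10.6%, against 23.1%) than SI tuft cells, with a median log2 fold change of 2.99 against 0.12 over all genes. Thymic tuft cells had 40 members higher (47.1%, against 28.6%) and 16 lower (18.8%, against 22.3%) than SI epithelium, with a median of 2.92 against 0.15. SI tuft cells had 10 members higher (11.8%, against 10.9%, a share near the background) and 23 lower (27.1%, against 11.4%) than SI epithelium. The median there was -1.82 against -0.10 over all genes, and -1.07 with genes at 0 in 1 population set at their bound. These comparisons share libraries, so their values stand side by side and are not independent. With DESeq2 size factors the median log2 fold change of all genes moved by 0.24 in thymic against SI tuft cells and by 0.23 in thymic tuft against SI epithelium. Of the 9 members lower in thymic than in SI tuft cells, 5 were still called with those size factors, and Kcnd3, Cacna2d2, Kcnq1 and Kcnd1 were not.

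**Figure D2:**
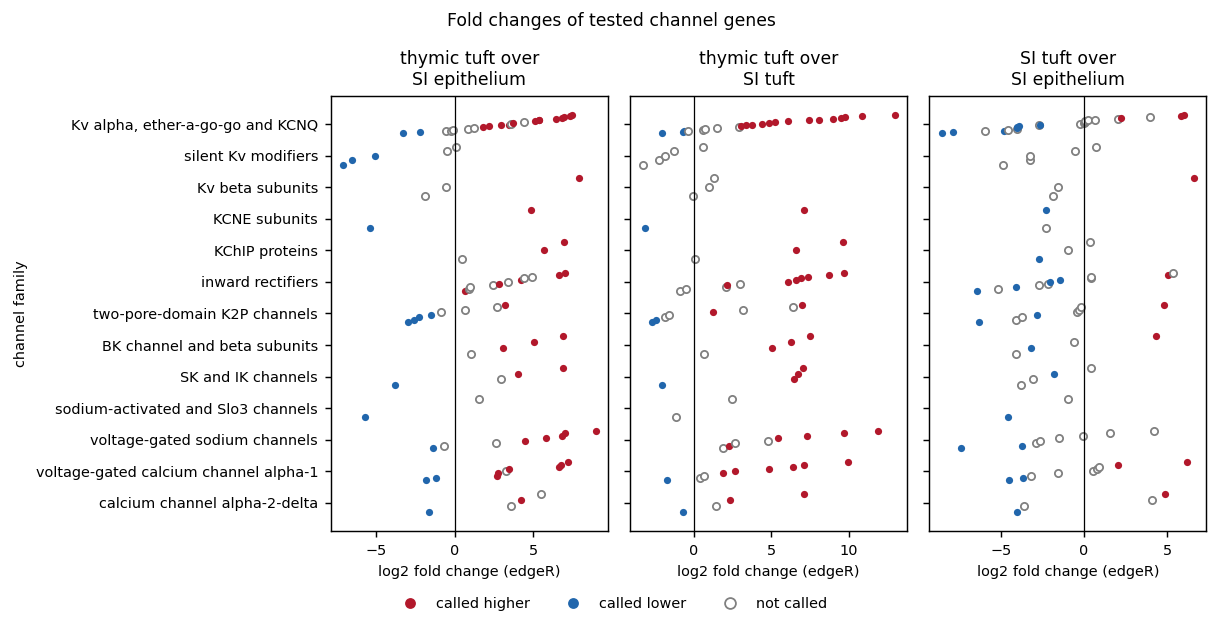
Log2 fold changes (edgeR, horizontal axis) of the 85 tested channel genes by channel family, for thymic tuft over SI epithelium, thymic tuft over SI tuft, and SI tuft over SI epithelium, with filled red points called higher, filled blue points called lower and open points not called. Thymic tuft cells had 45 genes called higher and 9 lower than SI tuft cells, and fold changes against a population without counts depend on the prior count and are no bounds.

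In both tuft populations, 10 channel genes were higher than in SI epithelium. They are all the members called higher in SI tuft cells, a share near the background (11.8%, against 10.9% of all genes tested). Both comparisons use the same SI epithelium libraries, and the share of all genes called higher in both was not counted. The 8 described here encode calcium channel subunits (Cacna2d2, Cacna1c, Cacna1f), the A-type potassium channel subunit Kcnd3, the cytoplasmic beta subunit Kcnab2, the inward rectifier Kcnj16, the tandem-pore channel Kcnk3 and the BK channel beta subunit Kcnmb4. Cacna2d2 encodes an alpha-2-delta subunit, an extracellular protein that raises the surface density of calcium channels (ENSMUSG00000010066, GRCm38 chromosome 9, 107399612 to 107529343). It was at 250, 243, 182 and 320 CPM in thymic tuft libraries, 444, 412 and 313 CPM in SI tuft libraries and 11.1, 13.5 and 16.5 CPM in SI epithelium libraries. Every tuft library was above every SI epithelium library. The log2 fold change was 4.18 (SE 0.25, adjusted p = 8.73e-08) in thymic tuft and 4.83 (SE 0.26, adjusted p = 9.24e-08) in SI tuft cells against SI epithelium. Thymic and SI tuft libraries overlapped, and their log2 fold change of -0.65 (adjusted p = 0.0204) lost its call without thymic library 3 (adjusted p = 0.0537), without SI tuft library 2 or 3, and with DESeq2 size factors (-0.40, adjusted p = 0.144).

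Kcnd3 encodes the pore subunit of a fast-inactivating A-type channel (ENSMUSG00000040896, chromosome 3, 105452330 to 105674002). It was at 39.3, 39.6, 52.7 and 55.2 CPM in thymic tuft, 79.2, 64.6 and 75.5 CPM in SI tuft and 0.997, 1.38 and 1.04 CPM in SI epithelium libraries. The populations did not overlap, and the log2 fold changes against SI epithelium were 5.36 (SE 0.26, adjusted p = 2.23e-08) in thymic tuft and 6.00 (SE 0.27, adjusted p = 2.05e-08) in SI tuft cells. The difference of -0.65 between thymic and SI tuft cells (adjusted p = 0.0182) was not called without SI tuft library 2 (adjusted p = 0.0698) or 4 (adjusted p = 0.0604), nor with DESeq2 size factors (-0.40, adjusted p = 0.122).

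Kcnab2, the cytoplasmic beta subunit that binds Shaker-type channels, was at 13.1, 10.1, 17.8 and 2.17 CPM in thymic tuft, 4.49, 6.09 and 2.45 CPM in SI tuft and 0.094, 0.0212 and 0.0151 CPM in SI epithelium libraries. The lowest tuft library was above the highest SI epithelium library, and the log2 fold changes were 7.90 (adjusted p = 4.76e-05) and 6.59 (adjusted p = 0.000452) in thymic and SI tuft cells against SI epithelium. Kcnj16, an inward rectifier subunit that works in heteromers, was at 8.78, 3.58, 17.3 and 2.20 CPM in thymic tuft, 18.8, 12.8 and 12.5 CPM in SI tuft and 0.527, 0.615 and 0.182 CPM in SI epithelium libraries. Its neighbour on chromosome 11, Kcnj2, moved the other way in SI tuft cells, as given below. Cacna1c, the pore subunit of an L-type calcium channel, averaged 23.4 ± 7.65 CPM (SD, n = 4) in thymic tuft, 14.8 ± 3.76 CPM (n = 3) in SI tuft and 3.63 ± 1.43 CPM (n = 3) in SI epithelium libraries. Its log2 fold changes against SI epithelium were 2.69 (adjusted p = 0.000187) in thymic and 2.03 (adjusted p = 0.00388) in SI tuft cells.

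The other members of this group were low or less stable. Kcnmb4, which slows BK channel gating, averaged 2.63 ± 0.969 CPM in thymic tuft, 1.62 ± 0.245 CPM in SI tuft and 0.0798 ± 0.0173 CPM in SI epithelium libraries, and 31.5% of its exon length overlaps the antisense genes Kcnmb4os1 and Kcnmb4os2, whose reads cannot be told apart with this kit. Kcnk3, an acid-sensitive background channel, was at 2.92, 0.113, 4.79 and 3.08 CPM in thymic tuft, 9.59, 7.56 and 7.02 CPM in SI tuft and 0.132, 0.0212 and 0.711 CPM in SI epithelium libraries. Its call in SI tuft against SI epithelium (log2 fold change 4.77, adjusted p = 0.0202) was lost without SI tuft library 2 (adjusted p = 0.0501) or SI epithelium library 1 (adjusted p = 0.089) or 2 (adjusted p = 0.0637). In thymic tuft against SI epithelium (3.21, adjusted p = 0.039) it was lost without thymic library 1 or 3, any SI tuft library, or SI epithelium library 1 or 2, with a largest adjusted p of 0.13. Cacna1f, an L-type subunit best known from photoreceptors, stayed at or below 1.53 CPM in every library, and in SI epithelium it had no count in libraries 1 and 2. Its call in SI tuft cells against SI epithelium (log2 fold change 6.18, adjusted p = 0.0226) was lost without SI tuft library 4 or any 1 SI epithelium library.

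**Figure D3:**
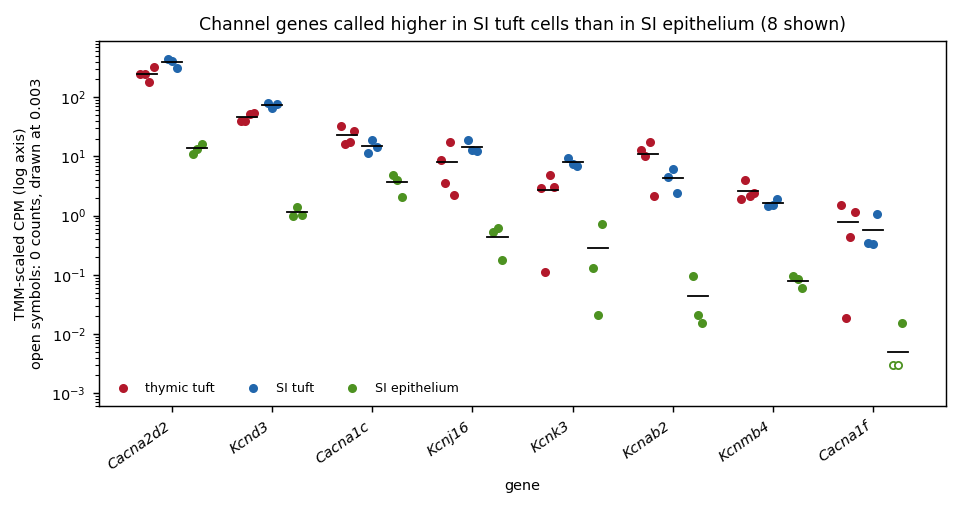
Level of 8 of the 10 channel genes called higher in SI tuft cells than in the SI epithelium (TMM-scaled CPM on a log axis), with 1 point per library of thymic tuft (n = 4, left), SI tuft (n = 3, middle) and SI epithelium (n = 3, right) and a bar at the mean. Cacna2d2 and Kcnd3 are above 20 CPM in every tuft library, whereas the thymic tuft libraries of Kcnk3 run from 0.113 to 4.79 CPM.

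Among pore subunits of voltage-gated, ether-a-go-go and KCNQ potassium channels, 22 of 30 were tested. In thymic tuft cells, 14 were higher and 3 lower than in SI tuft cells (63.6% and 13.6%, against 28.5% and 23.1% of all genes tested). Against SI epithelium, 13 were higher and 2 lower in thymic tuft cells (59.1% and 9.09%, against 28.6% and 22.3%), and 3 higher and 7 lower in SI tuft cells (13.6% and 31.8%, against 10.9% and 11.4%). Kcnq3, a subunit of the neuronal M-current that restrains repetitive firing (ENSMUSG00000056258, chromosome 15, 65986387 to 66286642), was at 240, 212, 216 and 249 CPM in thymic tuft libraries. It was at 12.0, 5.66 and 0 CPM in SI tuft and 1.64, 1.38 and 1.32 CPM in SI epithelium libraries. The thymic libraries were close together and far above the others, with log2 fold changes of 5.28 (SE 0.99, adjusted p = 0.000837) against SI tuft cells and 7.31 (SE 1.10, adjusted p = 0.000159) against SI epithelium. SI tuft libraries 2 and 3 were above the SI epithelium, but library 4 had no Kcnq3 count. The difference between SI tuft cells and SI epithelium was not called (2.03, adjusted p = 0.137) but passed the threshold without SI tuft library 4 (2.61, adjusted p = 8.14e-05).

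Kcnq1, which pairs with Kcne3 in intestinal crypts, was high everywhere: 38.4, 66.8, 41.4 and 40.4 CPM in thymic tuft, 73.5, 69.3 and 71.6 CPM in SI tuft and 61.2, 56.2 and 90.7 CPM in SI epithelium libraries. Thymic tuft cells were lower than SI tuft cells by a log2 fold change of -0.61 (adjusted p = 0.0424), a call lost without thymic library 1, 3 or 4, any 1 SI tuft library or SI epithelium library 1 (adjusted p up to 0.236 over all alternatives). The call was also lost with the shared counts subtracted (-0.55, adjusted p = 0.0683) and with DESeq2 size factors (-0.37, adjusted p = 0.207), and in 14 of 17 alternatives in all. SI tuft cells and SI epithelium overlapped (0.04, SE 0.25, adjusted p = 0.933). Against SI epithelium, thymic tuft cells had a log2 fold change of -0.57 (adjusted p = 0.0572) that passed the threshold without thymic library 2 (adjusted p = 0.00672).

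Of the 8 ether-a-go-go (Kcnh) genes within this family, a subset set apart after its values were seen, 7 were tested. All 7 were higher in thymic than in SI tuft cells (28.5% of all genes tested were), 6 were higher in thymic tuft cells than in SI epithelium (28.6% of all genes), and 4 were lower in SI tuft cells than in the SI epithelium (11.4% of all genes). Kcnh6, of the ERG subfamily that carries slow repolarising current, was at 50.7, 50.7, 43.2 and 21.4 CPM in thymic tuft, 0.413, 1.66 and 2.29 CPM in SI tuft and 23.7, 27.3 and 19.9 CPM in SI epithelium libraries. SI tuft cells were the low population, with log2 fold changes of 4.84 (adjusted p = 1.86e-05) in thymic over SI tuft cells and -4.02 (adjusted p = 0.000223) in SI tuft cells over SI epithelium. Thymic tuft cells and SI epithelium overlapped in Kcnh6 (0.81, adjusted p = 0.157). Kcnh7, of the same subfamily, averaged 31.1 ± 10.6 CPM in thymic tuft, 3.02 ± 0.839 CPM in SI tuft and 2.89 ± 1.35 CPM in SI epithelium libraries, so that only the thymic libraries stood apart. Kcnh1 was at 10.3, 4.33, 49.8 and 12.2 CPM in thymic tuft, 0 in all SI tuft and 1.03, 0.127 and 0.514 CPM in SI epithelium libraries. Against the limit of 3 counts over the SI tuft libraries, its mean was at least 739.7-fold higher in thymic tuft cells and at least 21.6-fold higher in SI epithelium. These bounds fell to 346-fold without thymic library 3 and to 12.4-fold without SI epithelium library 1, and to 477-fold and 13.9-fold without SI tuft library 2, with little more without SI tuft library 3 or 4.

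Kcnb2 and Kcnc1, both delayed rectifier genes, had their highest mean levels in SI epithelium. Kcnb2 was at 15.5, 16.3, 14.7 and 13.9 CPM in thymic tuft, 0.0971, 2.39 and 0.844 CPM in SI tuft and 17.9, 17.8 and 18.0 CPM in SI epithelium libraries. It was lower in SI tuft cells than in the SI epithelium (-4.01, adjusted p = 0.00237) and higher in thymic than in SI tuft cells (3.77, adjusted p = 0.0011), whereas thymic tuft cells and SI epithelium differed by -0.24 (adjusted p = 0.766). Kcnc1, a fast delayed rectifier, averaged 3.33 ± 1.37 CPM in thymic tuft, 1.19 ± 1.12 CPM in SI tuft and 33.3 ± 4.34 CPM in SI epithelium libraries. It was lower than in SI epithelium in thymic tuft (-3.32, adjusted p = 0.00429) and in SI tuft cells (-4.81, adjusted p = 0.00335).

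Of the 10 silent modifier genes, whose products form channels only with other subunits, 5 were tested. Thymic tuft cells had 0 called by edgeR against SI tuft cells (0 at an unadjusted p under 0.05 and 0 by DESeq2), where 28.5% of all genes tested were higher and 23.1% lower. They had 3 lower than SI epithelium (60%, against 22.3%) and 0 higher (0%, against 28.6%). SI tuft cells had 0 called against SI epithelium (2 lower at an unadjusted p under 0.05, and 1 by DESeq2), where 10.9% of all genes tested were higher and 11.4% lower. Kcnf1 was at 0.74, 0.207, 0.0578 and 0 CPM in thymic tuft, 0.17, 0.489 and 2.06 CPM in SI tuft and 8.86, 8.68 and 8.67 CPM in SI epithelium libraries. Its log2 fold change was -5.10 (adjusted p = 0.00526) in thymic tuft and -3.27 (adjusted p = 0.0974) in SI tuft cells against SI epithelium, and the second passed the threshold without thymic library 4 (adjusted p = 0.033). Kcns3, another modifier gene, averaged 2.14 ± 1.10 CPM in thymic tuft, 5.02 ± 3.17 CPM in SI tuft and 3.01 ± 1.23 CPM in SI epithelium libraries, with overlap between all of them.

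**Figure D4:**
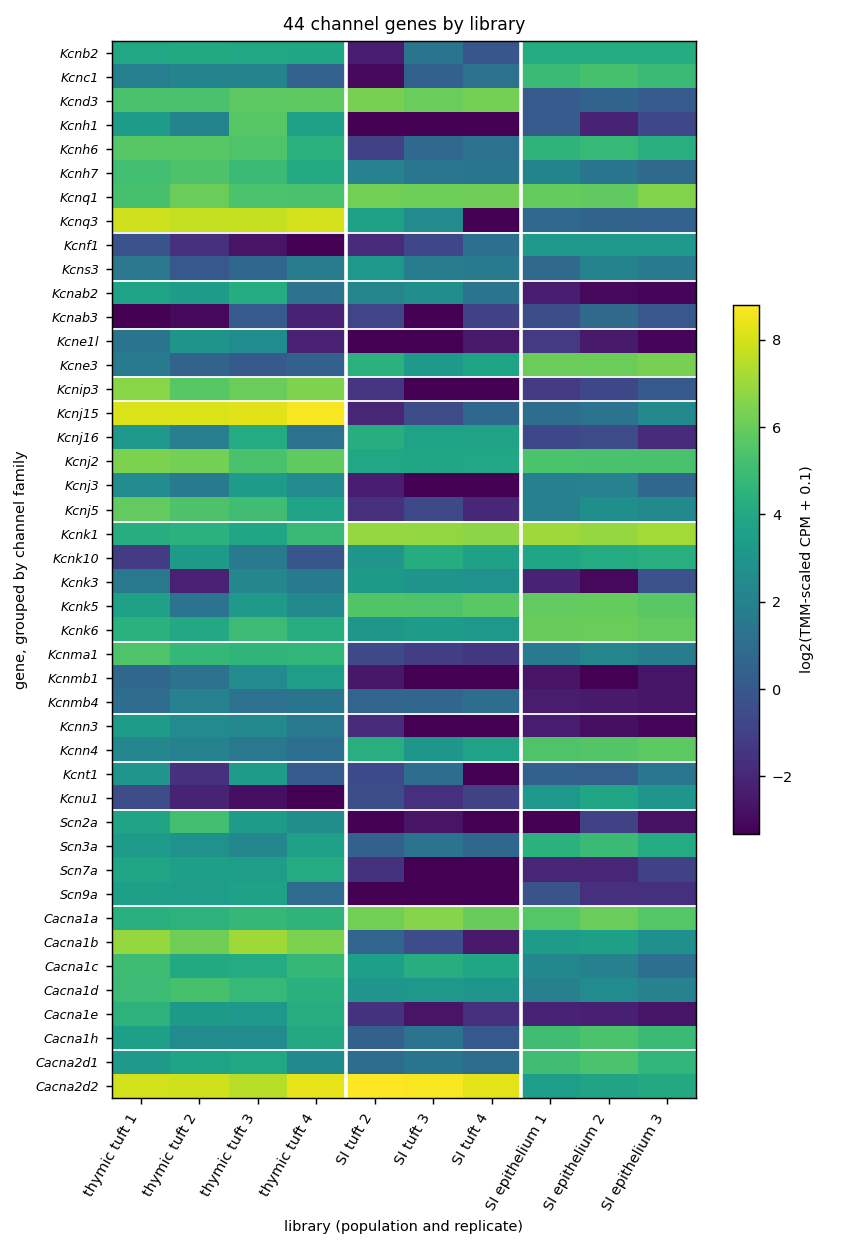
Levels of 44 channel genes (rows, grouped by family between white lines) in each library (columns: 4 thymic tuft, 3 SI tuft, 3 SI epithelium) as log2 of TMM-scaled CPM plus 0.1. Scn2a, Scn7a, Scn9a, Kcnj15, Kcnq3, Kcnip3 and Cacna1b are bright in the thymic columns, Cacna2d2 and Kcnd3 in both tuft populations, and Kcne3, Kcnn4 and Kcnk6 in the SI epithelium columns.

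Among accessory subunits, Kcnip3 and Kcne3 had opposite orders of populations. Kcnip3, a calcium-binding protein that modulates A-type channels and also acts as a transcriptional repressor (ENSMUSG00000079056, chromosome 2, 127456498 to 127522094), was at 101, 49.9, 66.5 and 87.1 CPM in thymic tuft, 0.267, 0 and 0 CPM in SI tuft and 0.339, 0.509 and 0.968 CPM in SI epithelium libraries. The lowest thymic library was above every other by a wide margin, and the log2 fold changes were 9.64 (SE 0.87, adjusted p = 2.33e-06) over SI tuft cells and 6.95 (SE 0.73, adjusted p = 8.24e-06) over SI epithelium. Kcne3, which holds KCNQ channels open in crypt cells, ran the other way at 3.17, 1.34, 0.982 and 1.25 CPM in thymic tuft, 21.5, 8.95 and 13.1 CPM in SI tuft and 68.3, 66.4 and 79.0 CPM in SI epithelium libraries. The order was the same in all comparisons, with no overlap. Its log2 fold change was -3.11 (adjusted p = 6.39e-05) in thymic against SI tuft cells, -2.29 (adjusted p = 0.00274) in SI tuft cells against SI epithelium and -5.40 (adjusted p = 1.23e-06) in thymic tuft against SI epithelium. Kcne1l, a related subunit gene on the X chromosome, was at 2.46, 7.63, 5.86 and 0.114 CPM in thymic tuft and at most 0.32 CPM in any SI library. It was called higher in thymic than in SI tuft cells (7.14, adjusted p = 0.00651) and than in SI epithelium (4.83, adjusted p = 0.0229), the second not without SI epithelium library 2 or 3 (largest adjusted p = 0.0892).

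Inward rectifiers pass potassium more readily into the cell than out of it. Of 15 genes, 11 were tested, and thymic tuft cells had 7 higher and 0 lower than SI tuft cells by edgeR (63.6% and 0%, against 28.5% and 23.1% of all genes). No inward rectifier was lower there at an unadjusted p under 0.05 (0 genes) or by DESeq2 (0 genes), and DESeq2 called 9 higher. Kcnj15 (ENSMUSG00000062609, chromosome 16, 95257558 to 95300260), an inward rectifier known from stomach and kidney, was the highest member per kilobase in thymic tuft cells. It was at 288, 284, 300 and 412 CPM in thymic tuft, 0.146, 0.571 and 1.61 CPM in SI tuft and 1.94, 2.31 and 5.36 CPM in SI epithelium libraries. No thymic library came near the SI libraries, and the log2 fold changes were 8.70 (SE 0.71, adjusted p = 9.44e-07) over SI tuft cells and 6.64 (SE 0.63, adjusted p = 3.46e-06) over SI epithelium. Kcnj16, its potential partner subunit, was present in both tuft populations as given above, whereas SI tuft cells had little Kcnj15.

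Kcnj2, the classical strong inward rectifier, was at 83.3, 77.7, 39.1 and 56.9 CPM in thymic tuft, 15.4, 14 and 14.8 CPM in SI tuft and 41.6, 40.0 and 40.1 CPM in SI epithelium libraries. SI tuft cells were lowest, with log2 fold changes of 2.13 (adjusted p = 2.93e-05) in thymic over SI tuft cells and -1.46 (adjusted p = 0.00171) in SI tuft cells over SI epithelium. The thymic difference from SI epithelium was small (0.66, adjusted p = 0.0386), with overlapping libraries, and lost its call without thymic library 1 or 2 or any 1 SI library (adjusted p up to 0.115). Kcnj2 and Kcnj16 lie next to each other on chromosome 11, at 111066164 to 111076821 and 110968033 to 111027968. Kcnj5 and Kcnj3, which encode the subunits of G protein-gated channels, were both nearly absent from SI tuft cells. Kcnj5 was at 58.5, 42.4, 33.6 and 13.1 CPM in thymic tuft, 0.218, 0.544 and 0.158 CPM in SI tuft and 3.82, 6.55 and 5.51 CPM in SI epithelium libraries. Kcnj3 averaged 6.10 ± 2.82 CPM in thymic tuft, 0.0324 ± 0.0561 CPM in SI tuft and 3.15 ± 1.34 CPM in SI epithelium libraries, and 31.1% of its exon length overlaps the gene Gm26794.

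Tandem-pore channels carry background potassium current, and Kcnk1 led the per-kilobase levels of SI epithelium. Kcnk1 was at 18.4, 21.5, 14.4 and 28.3 CPM in thymic tuft, 117, 113 and 103 CPM in SI tuft and 128, 116 and 137 CPM in SI epithelium libraries. Thymic tuft cells stood apart at log2 fold changes of -2.43 (adjusted p = 1.63e-06) against SI tuft cells and -2.62 (adjusted p = 9.08e-07) against SI epithelium, whereas SI tuft cells and SI epithelium overlapped (-0.19, SE 0.22, adjusted p = 0.59). Kcnk5, an alkaline-activated channel, followed the same order at 12.1, 2.33, 9.41 and 5.36 CPM in thymic tuft, 45.2, 44.4 and 51.2 CPM in SI tuft and 58.1, 60.8 and 52.4 CPM in SI epithelium libraries. Kcnk6 separated all populations at 21.4, 15.8, 31.3 and 18.8 CPM in thymic tuft, 8.33, 10.0 and 8.71 CPM in SI tuft and 62.5, 67.4 and 59.5 CPM in SI epithelium libraries. Kcnk6 was lower in SI tuft cells than in the SI epithelium (-2.81, adjusted p = 1.69e-05). Kcnk10, a mechanosensitive channel, was at 0.345, 9.70, 3.06 and 0.855 CPM in thymic tuft, 7.89, 17.8 and 12.2 CPM in SI tuft and 14.2, 17.2 and 19.1 CPM in SI epithelium libraries. Its call in thymic tuft against SI epithelium (-2.27, adjusted p = 0.0373) was lost without thymic library 3 or 4 or any 1 SI epithelium library, and with the shared counts subtracted (-2.26, adjusted p = 0.0582).

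Calcium-activated channels link calcium entry to repolarisation. Kcnma1, the BK channel pore (ENSMUSG00000063142, chromosome 14, 23289431 to 24014491), was at 43.1, 26.7, 24.5 and 25.9 CPM in thymic tuft, 0.534, 0.353 and 0.29 CPM in SI tuft and 3.10, 4.41 and 3.40 CPM in SI epithelium libraries. The populations did not overlap, with log2 fold changes of 6.25 (SE 0.44, adjusted p = 3.14e-07) in thymic over SI tuft cells, -3.20 (SE 0.40, adjusted p = 0.000113) in SI tuft cells over SI epithelium and 3.05 (SE 0.37, adjusted p = 2.73e-05) in thymic tuft over SI epithelium. Kcnmb1, the smooth muscle beta subunit, was at 1.61, 2.17, 5.72 and 10.6 CPM in thymic tuft and at most 0.0728 CPM in any SI library. Summed muscle markers were 98.7 to 204 CPM in thymic tuft, 47.5 to 95.7 CPM in SI tuft and 83.7 to 106 CPM in SI epithelium libraries. Of 9 tested markers, 8 were higher and 1 lower in thymic than in SI tuft cells (88.9% and 11.1%, against 28.5% and 23.1% of all genes). The part of muscle cells in Kcnmb1 was not tested. Kcnn4, the intermediate-conductance channel of secretory epithelium, was lowest in thymus at 4.78, 4.01, 2.74 and 2.07 CPM, against 19.9, 8.35 and 12.6 CPM in SI tuft and 44.0, 47.2 and 53.0 CPM in SI epithelium libraries. Its small-conductance relative Kcnn3 was at 10.3, 5.72, 5.11 and 2.92 CPM in thymic tuft and at most 0.194 CPM in any SI library, so both ends of this family were set apart between thymus and intestine. Kcnu1, known from sperm and not counted in these calcium-activated families, was at 0.592, 0.132, 0.0433 and 0 CPM in thymic tuft, 0.655, 0.218 and 0.422 CPM in SI tuft and 8.77, 14.5 and 7.87 CPM in SI epithelium libraries. The SI tuft difference (-4.58, adjusted p = 0.0192) lost its call without SI tuft library 3 or 4 or SI epithelium library 2 (adjusted p 0.0678 to 0.0772) and with shared counts subtracted (-4.59, adjusted p = 0.0679). The thymic difference (-5.73, adjusted p = 0.0014) did not under any alternative run.

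Voltage-gated sodium channel genes differed in which population was highest. Of 10 alpha-subunit genes, 8 were tested. Thymic tuft cells had 5 higher and 0 lower than SI tuft cells by edgeR (62.5% and 0%, against 28.5% and 23.1% of all genes), with 0 lower at an unadjusted p under 0.05 and 0 lower and 8 higher by DESeq2. They had 5 higher and 1 lower than SI epithelium (62.5% and 12.5%, against 28.6% and 22.3%). Scn2a, a principal subunit of brain neurons, was at 13.3, 35.2, 10.3 and 6.19 CPM in thymic tuft, 0, 0.0544 and 0 CPM in SI tuft and 0, 0.403 and 0.0454 CPM in SI epithelium libraries. Scn7a, a sodium-sensing relative, averaged 13.4 ± 3.01 CPM in thymic tuft, 0.0809 ± 0.14 CPM in SI tuft and 0.236 ± 0.15 CPM in SI epithelium libraries. Scn9a, known from pain-sensing neurons, was at 11.3, 10.5, 12.1 and 1.78 CPM in thymic tuft, 0 in every SI tuft and 0.771, 0.212 and 0.212 CPM in SI epithelium libraries. For each of these genes the thymic and SI libraries did not overlap, and the log2 fold changes over SI epithelium were 6.79 for Scn2a, 5.80 for Scn7a and 4.48 for Scn9a (largest adjusted p = 0.00284). Against the limit of 3 counts over the SI tuft libraries, Scn9a was at least 345-fold higher in thymic tuft cells, and at least 222-fold without SI tuft library 2.

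Scn3a, a sodium channel gene of the developing brain, had its highest levels in SI epithelium. It was at 10.3, 7.08, 4.74 and 12.1 CPM in thymic tuft, 1.26, 2.31 and 1.64 CPM in SI tuft and 20.9, 30.3 and 17.2 CPM in SI epithelium libraries. SI tuft cells were lowest (-3.72, adjusted p = 0.000147, against SI epithelium), thymic tuft cells lay between (2.30, adjusted p = 0.000952, over SI tuft cells), and their difference from SI epithelium (-1.42, adjusted p = 0.0109) lost its call without SI epithelium library 2 (adjusted p = 0.0774). The genes Scn3a, Scn2a, Scn9a and Scn7a lie in 1 cluster on chromosome 2, at 65457118 to 65567627, 65620771 to 65767447, 66480080 to 66634962 and 66673425 to 66784914. The order of populations differed within it, with Scn3a highest in SI epithelium and the others highest in thymic tuft cells. Of the 4 sodium channel beta subunit genes, all were higher in thymic than in SI tuft cells (100%, against 28.5% of all genes tested). In thymic tuft cells 1 was higher than in SI epithelium (Scn4b, 25%, against 28.6%, a share near the background). In SI tuft cells 1 was lower than in SI epithelium (Scn2b, 25%, against 11.4%).

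Voltage-gated calcium channel pore subunits differed by type. Cacna1b, the N-type subunit of nerve terminals (ENSMUSG00000004113, chromosome 2, 24603887 to 24763152), was at 118, 72.5, 133 and 83.8 CPM in thymic tuft, 1.46, 0.625 and 0.0791 CPM in SI tuft and 9.93, 11.6 and 6.73 CPM in SI epithelium libraries. The populations did not overlap, with log2 fold changes of 7.13 (SE 0.69, adjusted p = 4.2e-06) in thymic over SI tuft cells, -3.69 (SE 0.61, adjusted p = 0.000955) in SI tuft cells over SI epithelium and 3.44 (SE 0.56, adjusted p = 0.000298) in thymic tuft over SI epithelium. Cacna1a, the P/Q-type subunit, had the opposite order at 20.8, 22.7, 26.9 and 23.8 CPM in thymic tuft, 74.9, 95.7 and 62.9 CPM in SI tuft and 48.0, 64.2 and 48.2 CPM in SI epithelium libraries. Thymic tuft cells were lower than SI tuft cells (-1.72, adjusted p = 1.91e-05) and than SI epithelium (-1.18, adjusted p = 0.000376), and SI tuft cells overlapped with SI epithelium (0.54, adjusted p = 0.0933). Cacna1d, an L-type subunit that opens near rest, averaged 29.9 ± 7.73 CPM in thymic tuft, 8.14 ± 0.402 CPM in SI tuft and 4.46 ± 0.986 CPM in SI epithelium libraries. It was higher in thymic tuft cells than in SI tuft cells (1.88, adjusted p = 0.000338) and than in SI epithelium (2.74, adjusted p = 2.19e-05). Cacna1e, the R-type subunit, was at 22.9, 9.77, 8.78 and 18.6 CPM in thymic tuft and at most 0.243 CPM in any SI library.

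Cacna1h, a low-threshold T-type subunit, and Cacna2d1 marked the SI epithelium. Cacna1h was at 11.4, 5.67, 5.60 and 16.0 CPM in thymic tuft, 1.26, 2.34 and 0.923 CPM in SI tuft and 34.0, 41.2 and 30.2 CPM in SI epithelium libraries. Cacna2d1 was at 8.87, 12.9, 15.2 and 5.36 CPM in thymic tuft, 1.84, 2.56 and 1.87 CPM in SI tuft and 34.2, 41.0 and 25.9 CPM in SI epithelium libraries. Both were lower in SI tuft cells than in the SI epithelium, by log2 fold changes of -4.54 (adjusted p = 7.33e-05) for Cacna1h and -4.01 (adjusted p = 4.09e-05) for Cacna2d1. Cacna2d1 and Cacna2d2, which encode related subunits, thus had opposite orders in SI tuft cells and SI epithelium. Among the 5 tested of 12 calcium channel beta and gamma subunit genes, 3 were higher in both thymic and SI tuft cells than in SI epithelium (Cacnb1, Cacnb3 and Cacnb4). This is 60%, against 28.6% of all genes tested for thymic and 10.9% for SI tuft cells. Cacnb3 averaged 52.0 ± 14.2 CPM in thymic tuft, 111 ± 29.9 CPM in SI tuft and 27.7 ± 1.80 CPM in SI epithelium libraries, and Cacnb1 averaged 22.2 ± 6.20, 21.9 ± 8.08 and 3.05 ± 0.80 CPM in the same order.

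Markers of other cell types differed between the populations beside these genes. Enteroendocrine markers, which belong to an electrically excitable epithelial cell type, summed to 271 to 409 CPM in thymic tuft, 563 to 1430 CPM in SI tuft and 11700 to 16700 CPM in SI epithelium libraries. Of these 19 markers, 15 were lower and 1 (Insm1) was higher in thymic tuft cells than in SI epithelium (78.9% and 5.26%, against 22.3% and 28.6% of all genes). In SI tuft cells 17 were lower and 0 higher than in SI epithelium (89.5% and 0%, against 11.4% and 10.9%). Goblet cell markers summed to 2300 to 2850 CPM in SI tuft and 109000 to 118000 CPM in SI epithelium libraries. Paneth cell markers summed to 142 to 547 CPM and 12600 to 16300 CPM in the same populations. In SI tuft cells 8 of 9 goblet and 7 of 7 Paneth markers were lower than in SI epithelium (88.9% and 100%, against 11.4%), and 0 were higher. The genes lower in SI tuft cells than in the SI epithelium include Cacna1h, Scn3a, Kcnb2, Kcnh6 and Cacna2d1. The part of enteroendocrine, goblet or Paneth cells in these differences was not tested. Neuron and glia markers summed to 185 to 233 CPM in thymic tuft, 28 to 38 CPM in SI tuft and 173 to 225 CPM in SI epithelium libraries, with 14 of 15 markers counted in thymic tuft, 13 in SI tuft and 14 in SI epithelium libraries. Of 13 neuron and glia markers tested, 7 were higher and 0 lower in thymic than in SI tuft cells (53.8% and 0%, against 28.5% and 23.1% of all genes). Against SI epithelium, 5 were higher and 2 lower in thymic tuft cells (38.5% and 15.4%, against 28.6% and 22.3%). Medullary thymic epithelial markers, among them Aire, were at 2080 to 2230 CPM in thymic tuft, 42.8 to 51.3 CPM in SI tuft and 255 to 626 CPM in SI epithelium libraries. All 9 were higher in thymic than in SI tuft cells (100%, against 28.5% of all genes). Myeloid markers were at 227 to 281 CPM in thymic tuft, 18.9 to 53.8 CPM in SI tuft and 22.3 to 26.2 CPM in SI epithelium libraries, with Flt3 at 0 in SI tuft cells. Fibroblast and endothelial markers were at 27.4 to 148 CPM in thymic tuft, against 3.76 to 4.68 CPM in SI tuft and 3.69 to 4.46 CPM in SI epithelium libraries. B cell markers were at 25.4 to 40.2 CPM in thymic tuft, 1.74 to 4.06 CPM in SI tuft and 0.658 to 2.46 CPM in SI epithelium libraries, and T cell markers at 14.6 to 47.9, 27.1 to 36.5 and 3.81 to 6.89 CPM in the same order. The part of these cell types in the channel levels of any population was not tested.

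The low SI epithelium levels of some thymic genes were near the share of counts held in common with a thymic library. Kcnq3 counts of SI epithelium libraries 1, 2 and 3 were 0.583%, 0.577% and 0.596% of those in their thymic partner libraries, close to the shares estimated over other genes. Kcnip3 counts were 0.391%, 0.906% and 1.04%, and Kcnj15 counts were 0.497%, 0.722% and 2.02%. With the shares subtracted, Kcnip3 (log2 fold change -1.21, adjusted p = 0.508) and Kcnj15 (-0.98, adjusted p = 0.572) lost their calls between SI tuft cells and SI epithelium, and Kcnq3 was called higher (6.29, adjusted p = 0.0049). The Kcnip3 and Kcnj15 calls were also lost without SI tuft library 3 or SI epithelium library 3, that of Kcnip3 also without SI tuft library 4 or SI epithelium library 2, and that of Kcnj15 also without SI tuft library 2. Cacna1b counts in SI epithelium were 5.72%, 14.2% and 6.18% of the thymic partners' and Kcnma1 counts were 9.71%, 14.7% and 8.57%, well above the shared level. After subtraction, thymic tuft cells had 45 members higher and 8 lower than SI tuft cells and 40 higher and 15 lower than SI epithelium, and SI tuft cells had 11 higher and 20 lower than SI epithelium.

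**Figure D5:**
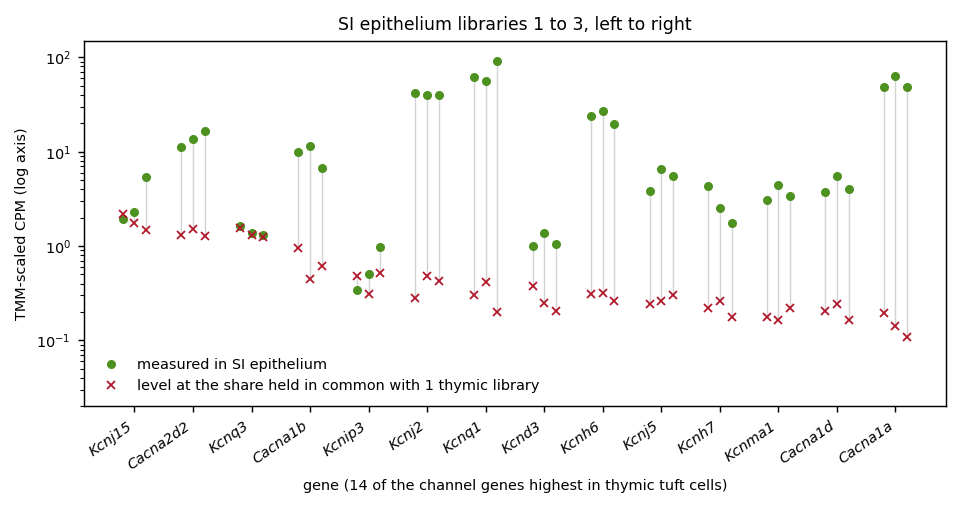
Level in SI epithelium libraries 1 to 3 (green points, TMM-scaled CPM on a log axis) of 14 of the channel genes highest in thymic tuft cells, beside the level that the count share held in common with 1 thymic library would give (red crosses). Kcnq3 and some libraries of Kcnj15 and Kcnip3 sit at the crosses, whereas Cacna1b, Kcnj5, Kcnh6 and Kcnma1 sit well above them.

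Channels and transporters that act beside these families were counted in the same fit. Of 25 other cation channels of excitable and taste cells, 22 were tested. In thymic tuft cells, 7 were higher and 5 lower than in SI tuft cells (31.8% and 22.7%), shares near the 28.5% and 23.1% of all genes. Against SI epithelium, 9 were higher and 2 lower in thymic tuft cells (40.9% and 9.09%, against 28.6% and 22.3%), and 4 higher and 2 lower in SI tuft cells (18.2% and 9.09%, against 10.9% and 11.4%). Trpm5 averaged 1147 ± 108 CPM in thymic tuft, 5261 ± 716 CPM in SI tuft and 45 ± 23.2 CPM in SI epithelium libraries. Calhm3, part of a taste cell channel that releases ATP, averaged 41.4 ± 7.84 CPM in thymic tuft, 7.44 ± 1.35 CPM in SI tuft and 0.43 ± 0.294 CPM in SI epithelium libraries.

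Of 21 epithelial ion transport genes, 19 were tested. Compared with SI tuft cells, thymic tuft cells had 8 higher and 7 lower (42.1% and 36.8%, against 28.5% and 23.1% of all genes), and compared with SI epithelium 8 higher and 8 lower (42.1% each, against 28.6% and 22.3%). SI tuft cells had 3 higher and 5 lower than SI epithelium (15.8% and 26.3%, against 10.9% and 11.4%). Cftr, the chloride channel whose flux depends on basolateral potassium channels, averaged 22.3 ± 8.24 CPM in thymic tuft, 52.6 ± 1.83 CPM in SI tuft and 154 ± 10.1 CPM in SI epithelium libraries, the same order as Kcne3 and Kcnn4.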

How the data were processed

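The authors deposited a table of read counts per gene for each of the 10 libraries, made with STAR and GRCm38 per the submitters' processing notes. The notes name no versions. DESeq2 is also named there. Per the labels' protocols, poly(A) RNA was amplified with NuGEN Ovation V2 and libraries made with Nextera XT, which mark no strand, so reads of the 34 members whose exons overlap another gene cannot be assigned for certain. Per the series' design text, the authors set aside 1 library of SI tuft cells and 1 of SI epithelium after quality control. Raw reads were not used here.

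Symbols, coordinates and exon lengths came from GENCODE M21 by Ensembl identifier (42548 of 43432 matched, 884 not). Genes were kept by filterByExpr (minimum count 10, total 15, smallest group 3), scaled by TMM (factors 0.661 to 1.43) and fitted with edgeR 4.0.16 in R 4.3.3 by the quasi-likelihood test. The fit had a mean per population over all 10 libraries, adjusted by Benjamini-Hochberg over 19281 genes, and DESeq2 1.42.0 was an alternative. The procedure was tested on simulated data. Counts of 3 set the limit for genes at 0, which covers counting error only. Shared counts were estimated as the median ratio to the partner library and subtracted as an alternative, which removed 0.322% to 0.468% of SI epithelium and 1.07% to 1.48% of thymic library 1 to 3 counts. Mitochondrial genes took 4.38% to 5.97% of counts in thymic tuft, 24.1% to 33.5% in SI tuft and 18.6% to 23.7% in SI epithelium libraries.

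The members, families, marker lists and tests were chosen with earlier results of these data known. Named genes were members called with at least 5 CPM in the higher population (up to 12 each way per comparison), the highest member of each family in each population at 1 CPM or more, and members and partner genes at 20 CPM or more, 47 members in all, of which 44 are given; some genes of these lists are not reported here. Cacna1f, Scn4b, Scn2b, Cacnb4, Insm1 and the genes under other observations were named after their values were seen.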

Additional observations from a re-analysis of the deposited data

Results flagged for a closer look

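In the 4 thymic tuft libraries, 6 of the 44 channel genes screened had 1 library far from the rest, with a gap to its neighbour over the whole range above Dixon's 95% critical value. Chance gives such a value in about 1 in 20 groups. Kcnq1 was at 66.8 CPM in library 2, against 38.4 to 41.4 CPM in the others (ratio 0.894). Kcnma1 was at 43.1 CPM in library 1, against 24.5 to 26.7 CPM (0.885), and Kcne3 was also highest in library 1 at 3.17 CPM, against 0.982 to 1.34 CPM (0.838). Kcnj15 was at 412 CPM in library 4, against 284 to 300 CPM (0.88), whereas Scn9a was lowest in that library at 1.78 CPM, against 10.5 to 12.1 CPM (0.846). Kcnab3, a beta subunit of Shaker-type channels, was at 1.01 CPM in library 3 and 0 to 0.133 CPM in the others (0.868). The SI populations have 3 libraries each and were not screened.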

How the results depend on the processing

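Over 17 alternatives, 2139 of 2237 values of named channel genes kept their side of the threshold, 79 lost their call and 19 gained one. Among values called in either fit, 0 changed sign. Values called in neither fit were not screened for sign, and some changed it. Kcnn3 in SI tuft cells against SI epithelium, for example, ran from -4.47 to 1.7, with 0.4 in the main fit. Channel genes lower in thymic than in SI tuft cells numbered 9, and 5 with DESeq2 size factors and 5 with only the 2 populations compared in the fit, all 5 among the 9 each time; the cause was not tested. All genes called in SI tuft cells against SI epithelium numbered 2101 higher and 2199 lower, and 3475 and 3513 with only these populations in the fit, where the other population's spread no longer enters. The lower count was 1426 without SI epithelium replicate 1 and 1432 without replicate 2. Leaving out each library in turn gave 39 to 48 members higher and 6 to 9 lower in thymic than in SI tuft cells, 32 to 46 and 14 to 17 in thymic tuft cells against SI epithelium, and 7 to 11 and 20 to 27 in SI tuft cells against SI epithelium. Where the only SI tuft library with counts was left out, fitted fold changes grew, to 14.97 for Kcnip3 against 9.64.

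With the replicate number as a block, the counts were 41 higher and 6 lower in thymic against SI tuft cells, 40 and 16 in thymic tuft cells against SI epithelium, and 9 and 22 between SI tuft cells and SI epithelium. Same-numbered libraries had correlations of deviations between -0.0406 and 0.102, and the labels do not say that equal numbers share an animal, so the numbers were not taken to pair the samples. Thymic libraries were made from the fewest cells, and depth limits statements on genes near 3 counts.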

Other observations

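Several channel genes were high in 1 library of a population and low in its other libraries. Kcnd2, an A-type subunit, was at 8.78 CPM in thymic tuft library 2 and between 0 and 0.836 CPM in the other thymic libraries, with no count in any SI library. Kcnh4 was at 12.3 CPM in the same library and 0.419 to 4.47 CPM in the others. Kcnj9, a subunit of G protein-gated channels, was at 11.8 CPM in thymic library 3 and 0.019 to 2.61 CPM in the others. Cacna2d4 was at 8.45 CPM in thymic library 1 and 0 to 2.14 CPM in the others. In thymic library 4, Kcnk7 was at 6.33 CPM and Kcne1, a cardiac KCNQ channel subunit, at 5.49 CPM, against at most 0.264 CPM for Kcnk7 and 0.734 CPM for Kcne1 in the other thymic libraries. Kcnj10, an inward rectifier of glia and kidney, was at 6.02 CPM in SI tuft library 2, 0.163 CPM in library 3 and 0 CPM in library 4. Kcnt1, a sodium-activated channel, was at 8 and 10.3 CPM in thymic libraries 1 and 3 and at 0.226 and 1.01 CPM in libraries 2 and 4. Each thymic library came from 1350 to 1900 cells of 1 mouse, and whether these values reflect the animal, few cells or amplification was not tested.

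Members with counts numbered 80 to 103 in thymic tuft, 57 to 69 in SI tuft and 82 to 84 in SI epithelium libraries. Over all genes the numbers were 20453 to 23179, 18889 to 19396 and 21552 to 21911 in the same order. Kcnc2, Kcnk15, Kcnj8 and Kcnj1 had no count in any of the 10 libraries.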
